A study of Homo sapiens with 6 samples.

Results

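The genes examined here were 39 genes of the Fanconi anaemia pathway, homologous recombination and the DNA damage checkpoint, the cell functions that detect and repair damaged or crosslinked DNA. They were chosen by matching a list of 39 gene symbols to the table of counts, a list drawn up by function with earlier results of these data known, and all 39 were found among the 17100 genes of that table. All 39 also passed the filter on low counts, which left 13322 genes to test. The cells were MDA-MB-231, an established triple-negative breast cancer line of mesenchymal character that carries a mutant p53, grown in culture. Treated cells received 1 µM SGI-110 (guadecitabine, a dinucleotide prodrug of the DNA methyltransferase inhibitor decitabine) for 96 h and were then kept without drug for 24 h, and control cells received vehicle. RNA was sequenced from 3 independent experiments in each group, and no gene was edited and no second cell line was included, so that the values describe this line only.

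Decitabine is built into DNA, where it traps DNA methyltransferase 1 in a covalent bond and leaves a crosslink of protein to DNA that has to be removed. When a replication fork meets a blocking lesion, the Fanconi core complex attaches ubiquitin to FANCD2 and FANCI, nucleases open the lesion, and the resulting break is resected and repaired by recombination, with BRCA2 and PALB2 among the proteins involved. The kinases ATM and ATR signal the damage to CHEK1 and CHEK2, which hold the cell cycle. Many of these genes are transcribed at a higher rate in dividing cells, and much of the regulation of the pathway acts on the proteins and not on the transcripts.

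The promoters of these genes were rich in CpG dinucleotides, the sites at which DNA is methylated. RefSeq promoter sequences (GRCh38.p14) were matched for 37 of the 39 genes, and NBN and FANCI had no entry. The 250 bases upstream of the start held a median of 21 CpGs over the 37 promoters, with a range of 11 to 35. The median was also 21 over the 10191 promoters of the genes tested, and it was 11 over 27305 promoters in all. The TATA motif TATAAA was found in 0 of 37 promoters and in 5.38% of the promoters of genes tested, with both strands searched for this and each other motif. The CCAAT motif was found in 17 of 37, or 45.9%, against 34.7% of the genes tested. An E2F-type motif (TTTCCCGC, TTTCGCGC, TTTGCCGC or TTTGGCGC) was found in 2 of 37, those of FANCA and FANCC, or 5.41% against 4.29%. The motif TTTGAA, found at cell cycle genes, was present in 7 of 37, or 18.9% against 8.26%. A match is a description of the letters and not evidence of binding, and DNA methylation was not measured here.

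The 100 bases upstream of the start are shown for the 6 genes with the largest changes that passed the test on RNA counts, so that the CpGs, in capitals, can be compared between 3 genes that were higher and 3 that were lower after SGI-110. RBBP8, RAD50 and SPRTN, at chr18:22933228-22933327, chr5:132556877-132556976 and chr1:231338193-231338292 on the plus strand, were higher. RAD54L at chr1:46247588-46247687 on the plus strand was lower, as were XRCC1 at chr19:43575528-43575627 and RAD51D at chr17:35119759-35119858, both on the minus strand. Each is written 5′ to 3′ on the strand of its gene.
RBBP8: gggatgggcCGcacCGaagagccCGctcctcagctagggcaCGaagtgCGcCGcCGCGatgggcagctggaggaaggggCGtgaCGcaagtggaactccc
RAD50: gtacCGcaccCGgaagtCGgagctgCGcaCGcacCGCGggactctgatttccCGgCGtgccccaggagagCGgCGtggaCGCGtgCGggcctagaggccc
SPRTN: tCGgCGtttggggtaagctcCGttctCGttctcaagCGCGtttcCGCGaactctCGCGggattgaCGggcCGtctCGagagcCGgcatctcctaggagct
RAD54L: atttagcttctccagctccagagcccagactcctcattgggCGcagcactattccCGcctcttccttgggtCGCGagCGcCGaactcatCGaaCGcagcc
XRCC1: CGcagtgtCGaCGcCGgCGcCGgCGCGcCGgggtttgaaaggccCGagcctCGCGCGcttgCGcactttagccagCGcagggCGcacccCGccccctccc
RAD51D: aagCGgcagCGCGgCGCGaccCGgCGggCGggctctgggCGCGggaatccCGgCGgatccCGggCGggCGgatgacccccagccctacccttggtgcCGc
These stretches held 10, 14 and 14 CpGs in the genes that were higher, in the order shown, and 8, 17 and 16 in those that were lower. Over the whole 250 bases, the 5 genes called higher had a median of 20 CpGs (11 to 23) and the 6 called lower a median of 30.5 (14 to 35), beside 20 (13 to 34) over the 26 promoters of genes without a call. The ranges overlapped, and the counts are a description of a few promoters.

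The libraries differed in depth and in background. Their totals ran from 8792127 counts in SGI-110 replicate 2 to 22277442 in vehicle replicate 3. In vehicle replicate 3, 20 genes were at 0, against 1593 to 2517 in each of the other libraries, and a median of 16 counts was found there over 533 genes that had 1 count or none in either of the other 2 vehicle libraries but were counted after SGI-110, or 7.10 counts per kb of exon. That rate would make up 40.6% of the count of BRCA2 in vehicle replicate 3, 28.6% of FANCM and 21.0% of BLM, and over 15% in 8 of the 39 genes. Without this library the log2 fold change of BRCA2 went from 0.54 to 0.67, that of FANCM from −0.08 to −0.09 and that of BLM from 0.31 to 0.22. None of the 8 genes passed an adjusted p of 0.05 in edgeR with or without it. The lowest count of any of the 39 genes was 47, in SGI-110 replicate 2, and a floor of 3 counts corresponded to 0.129 to 0.341 CPM (counts per 1000000 of the library total, adjusted by its TMM factor from edgeR). Counts are not independent molecules, so this floor covers counting error only. All 10 markers of the line were present in both groups, with 2 higher and 4 lower after SGI-110 and a median log2 fold change of −0.17. VIM was at means of 3140 CPM in vehicle and 3944 CPM after SGI-110 and S100A4 at 1469 and 565 CPM, and the hormone receptor genes ESR1 and PGR were at means of 0.98 and 0.62 CPM in vehicle and 0.015 and 0 CPM after SGI-110. ESR1 and PGR did not pass the filter on low counts, so no change is read from them. Their vehicle means include vehicle replicate 3, the library with background counts. The luminal genes GATA3, XBP1 and SPDEF were expressed in both groups. GATA3 was higher after SGI-110 (log2 0.83, adjusted p = 0.000512, edgeR) and SPDEF lower (log2 −1.73, adjusted p = 0.000126, edgeR), while XBP1 gave no call (adjusted p = 0.520, edgeR).

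SGI-110 replicate 1 stood apart in these genes. It was the highest of the 3 treated libraries in 28 of the 39 genes, against 41.3% of all genes tested. SGI-110 replicate 2 was the lowest in 26, a count for which no share of all genes is given here. The log2 level in replicate 1 exceeded the mean of the other 2 treated libraries by a median of 0.30 over the 39 genes and of 0.02 over all genes tested. The excess was larger for long transcripts. Its Spearman correlation with counted exon length was 0.54 across the 39 genes and 0.37 across 13322 genes, a description in which every point shares the same 3 libraries. The 39 genes had a median exon length of 4058 bp, against 2933 bp for all genes tested. The SD of the log2 level was larger after SGI-110 than in vehicle in 34 of the 39 genes, with medians of 0.23 and 0.09, where all genes tested had 0.18 and 0.14. Values without replicate 1 are given for the genes it moved by more than 0.20 on the log2 scale.

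**Figure D1:**
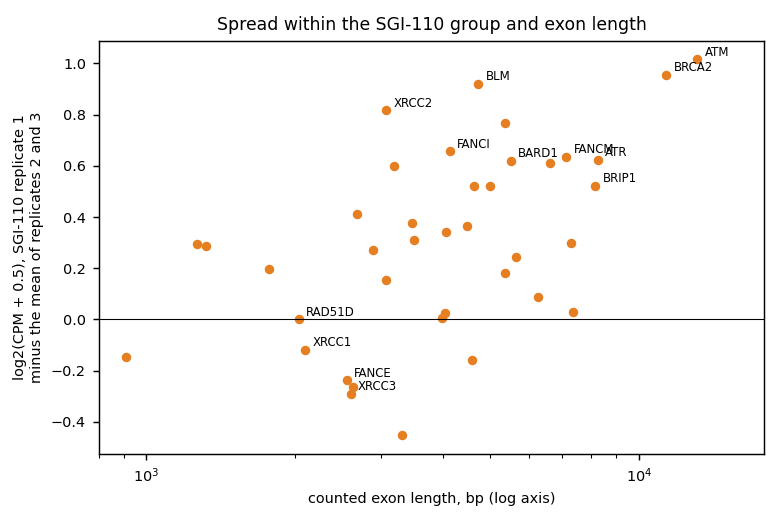
Excess of SGI-110 replicate 1 over the mean of SGI-110 replicates 2 and 3 (log2, vertical axis) against counted exon length in bp (log axis) for each of the 39 genes, 1 point a gene. The longest genes, such as BRCA2 and ATM, lie far above 0, and the median over the 39 genes was 0.30.

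The main comparison asked whether transcripts of DNA repair and checkpoint genes differed between treated and control cells. After SGI-110, 5 of the 39 genes were higher (RBBP8, RAD50, SPRTN, FANCE and CHEK1) and 6 were lower (RAD54L, XRCC1, RAD51D, FANCF, FANCA and FANCC) at an adjusted p below 0.05, from the quasi-likelihood test of edgeR adjusted by Benjamini-Hochberg across the 13322 genes. These are 12.8% and 15.4% of the 39, beside 19.3% of all 13322 genes called higher and 18.4% called lower. Calls in either direction covered 28.2% of the 39 and 37.7% of all genes, so the share called was below that of all genes. No gene changed by 2-fold or more, and log2 fold changes ran from −0.85 (RAD54L) to 0.86 (RBBP8) with a median of −0.04, against 0.02 over all genes tested. The 3 treated libraries lay wholly above the 3 vehicle libraries in 9 genes and wholly below in 9 of the 39, where 26.6% and 25.0% of all genes did so. With 3 libraries against 3, a two-sided exact permutation test of a single gene cannot give a p below 0.1. In bulk RNA, fewer cells expressing a gene and less RNA per cell cannot be told apart.

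Of the 11 calls, 6 did not depend on any single library. RBBP8, RAD50, SPRTN, RAD54L, XRCC1 and RAD51D kept theirs in each of the 6 fits that left out 1 library and under each of 7 other settings. The number called higher fell from 5 to 3 without SGI-110 replicate 3. The number called lower fell from 6 to 3 without vehicle replicate 1 and likewise without vehicle replicate 2. Over all genes, higher calls fell from 2576 of 13322 tested to 1706 of 13618 without SGI-110 replicate 3. Lower calls fell from 2446 to 1690 of 13561 without vehicle replicate 1 and to 1787 of 13643 without vehicle replicate 2. Of the 28 genes without a call, 25 had a 95% interval of the change that lay within 2-fold in either direction, and the exceptions were BRCA2, XRCC2 and ATM.

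**Figure D2:**
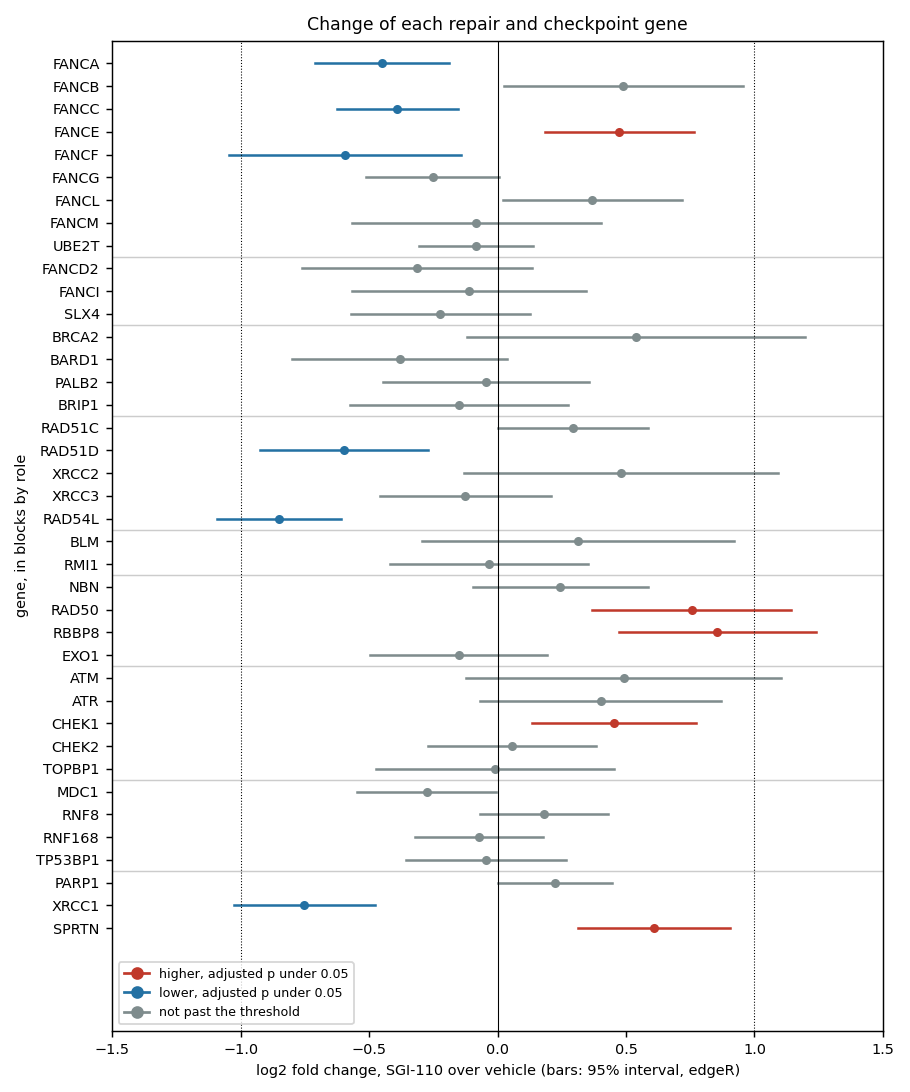
Log2 fold change of SGI-110 over vehicle for each of the 39 genes (points) with its 95% interval from the edgeR fit (bars), in blocks by role, 3 libraries a group; dotted lines mark a 2-fold change. The 5 genes in red were higher and the 6 in blue were lower at an adjusted p below 0.05, and every point lies between −0.85 and 0.86.

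Genes that process broken DNA ends held the largest increases. Of the 4 in this role, 2 rose and none fell, beside 19.3% and 18.4% of all genes, and the median log2 fold change was 0.50. With 4 genes, these counts say nothing about the role as a whole. RBBP8 encodes CtIP, which starts the resection of a break, and lies at 20513295 to 20606449 on the plus strand of chromosome 18 (hg19, as for all gene positions). Its levels were 35.0, 37.2 and 39.9 CPM in vehicle replicates 1 to 3 and 87.3, 56.2 and 58.7 CPM in SGI-110 replicates 1 to 3. The groups did not overlap, and the first treated library was well above the other 2. RBBP8 rose 1.81-fold (log2 0.86, SE 0.17, adjusted p = 0.00413, edgeR), and by 0.62 on the log2 scale without SGI-110 replicate 1. RAD50, the coiled-coil ATPase of the complex that senses and tethers break ends (chromosome 5, 131892616 to 131980313, plus strand), had 39.8, 41.3 and 43.1 CPM in vehicle and 90.5, 55.7 and 62.8 CPM after SGI-110. It showed the same order of the treated libraries as RBBP8. RAD50 rose 1.69-fold (log2 0.76, SE 0.17, adjusted p = 0.00789, edgeR), and the log2 value was 0.52 without SGI-110 replicate 1.

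The partner of RAD50 in that complex, NBN, was at 49.8, 49.7 and 51.2 CPM in vehicle and 74.4, 50.7 and 52.8 CPM after SGI-110. Only replicate 1 was clearly above vehicle, and the log2 fold change of 0.24 did not pass (adjusted p = 0.231, edgeR) and was 0.04 without SGI-110 replicate 1. EXO1, the exonuclease that extends resection, gave a log2 fold change of −0.15 (adjusted p = 0.467, edgeR) and overlapping groups.

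**Figure D3:**
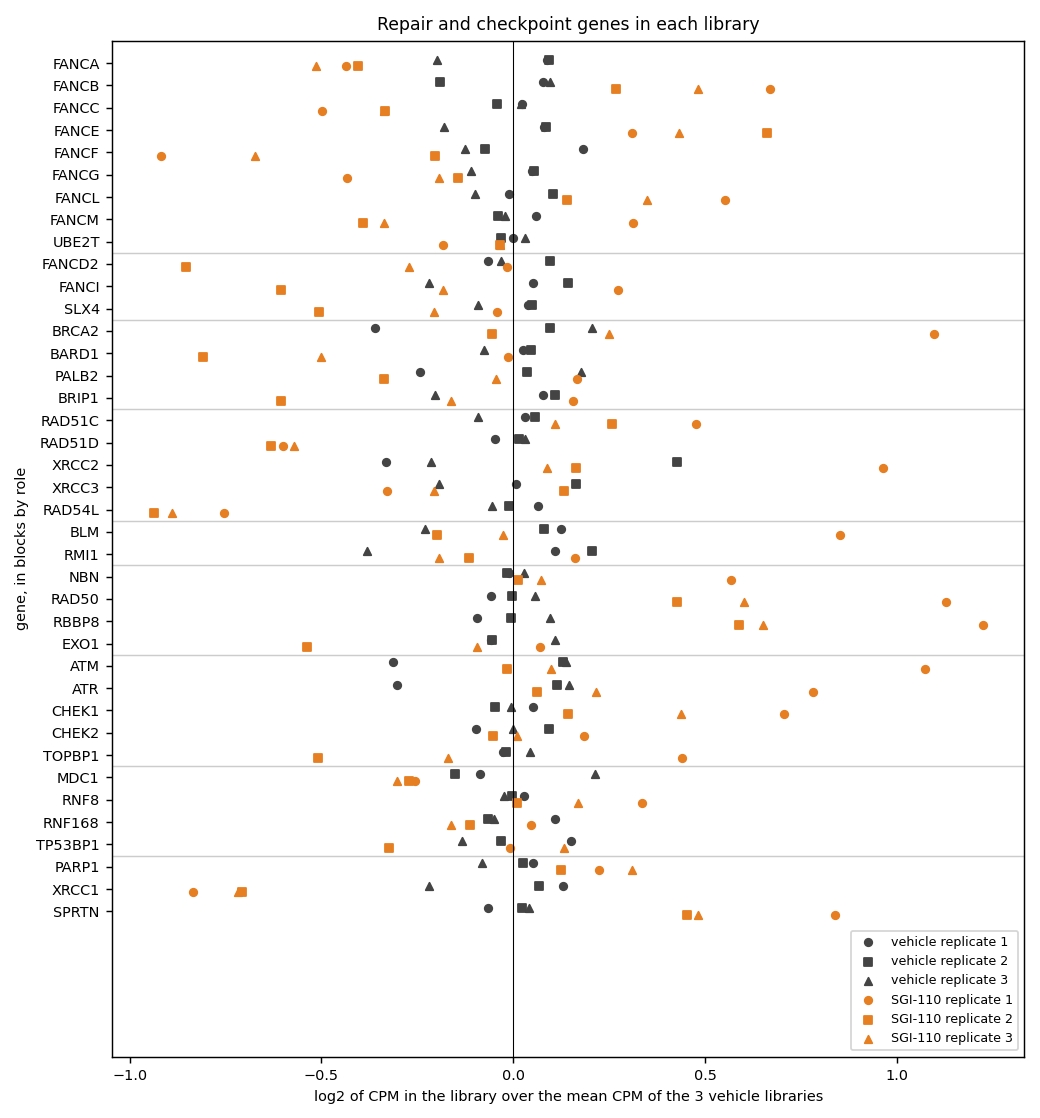
Level of each of the 39 genes in each of the 6 libraries, as log2 of CPM over the mean of the 3 vehicle libraries, 1 point a library with the replicate marked. RBBP8 and RAD50 lie above 0 in all treated libraries and farthest in replicate 1, while RAD54L, XRCC1 and RAD51D lie below 0 in all 3.

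Among the genes of strand exchange, RAD54L and RAD51D fell, and BRCA2, PALB2, BARD1 and BRIP1 gave no call with all libraries. RAD54L, a motor protein of strand exchange with the intact DNA copy (chromosome 1, 46713367 to 46744145, plus strand), was at 32.8, 31.1 and 30.1 CPM in vehicle and 18.6, 16.4 and 16.9 CPM after SGI-110. The groups were far apart and each was narrow. RAD54L fell 1.81-fold (log2 −0.85, SE 0.11, adjusted p = 0.000324, edgeR), and the log2 value stayed between −0.91 and −0.82 with any library left out. By annotation 25.8% of its exon bases are shared with LRRC41 on the opposite strand, and counting was not described as strand-specific. LRRC41 had a log2 fold change of 0.01, and its part in the RAD54L value was not tested.

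RAD51D, a recombination protein that acts on single-stranded DNA (chromosome 17, 33426811 to 33446888, minus strand), was at 9.89, 10.3 and 10.4 CPM in vehicle and 6.74, 6.59 and 6.88 CPM after SGI-110. Replicates of each group differed by little. It fell 1.51-fold (log2 −0.60, SE 0.14, adjusted p = 0.0109, edgeR). RAD51C, which works in the same complex, moved the other way, at 17.9, 18.2 and 16.4 CPM in vehicle and 24.4, 20.9 and 18.9 CPM after SGI-110. Its groups did not overlap, but the log2 difference of 0.29 missed the threshold (adjusted p = 0.106, edgeR). XRCC2, another subunit of that complex, had 11.5, 19.5 and 12.5 CPM in vehicle and 28.3, 16.2 and 15.4 CPM after SGI-110, with overlapping groups and a wide 95% interval of −0.13 to 1.09 on the log2 scale. The log2 fold change was 0.48 with all libraries (adjusted p = 0.194, edgeR) and 0.13 without SGI-110 replicate 1. XRCC3, which pairs with RAD51C, gave a log2 fold change of −0.13 (adjusted p = 0.535, edgeR), and 48.8% of its exon bases are shared with KLC1, so its count is uncertain.

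BRCA2, which acts on resected DNA in strand exchange (chromosome 13, 32889617 to 32973809, plus strand), was at 5.80, 7.96 and 8.58 CPM in vehicle and 15.9, 7.16 and 8.85 CPM after SGI-110. Replicate 1 alone was high and the other 2 treated libraries lay within the range of vehicle or just above it. The log2 fold change was 0.54 with all libraries (SE 0.29, adjusted p = 0.176, edgeR) and 0.11 without SGI-110 replicate 1. PALB2, the partner that recruits BRCA2, was at 9.09, 11.0 and 12.2 CPM in vehicle and 12.1, 8.52 and 10.4 CPM after SGI-110, with a log2 fold change of −0.04 (95% interval −0.45 to 0.36). BARD1, the partner of BRCA1 in a ubiquitin ligase, had 19.2, 19.5 and 17.9 CPM in vehicle and 18.7, 10.8 and 13.4 CPM after SGI-110. Its log2 fold change of −0.38 did not pass with all libraries (adjusted p = 0.137, edgeR) and was −0.63 without SGI-110 replicate 1 (adjusted p = 0.00773, edgeR). BRIP1, a helicase bound by BRCA1, gave −0.15 (adjusted p = 0.565, edgeR). BLM, a helicase that takes apart joined DNA intermediates, gave 0.31 (adjusted p = 0.394, edgeR), and −0.10 without SGI-110 replicate 1, with treated libraries at 14.6, 7.04 and 7.95 CPM. Its partner RMI1 gave −0.03 (adjusted p = 0.898, edgeR).

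Calls among the Fanconi core complex genes went in both directions. Of 9 genes, counting the ubiquitin-conjugating enzyme UBE2T, 1 rose, 3 fell and 5 gave no call, beside 37.7% of all genes called, and the median log2 fold change was −0.08. FANCE, the subunit that contacts FANCD2 (chromosome 6, 35420138 to 35434881, plus strand), was at 55.5, 55.7 and 46.3 CPM in vehicle and 65.0, 83.1 and 70.9 CPM after SGI-110. Its treated libraries were all above vehicle, with replicate 2 and not replicate 1 the highest. FANCE rose 1.39-fold (log2 0.47, SE 0.13, adjusted p = 0.0183, edgeR), and the call was lost without SGI-110 replicate 3 (adjusted p = 0.0681, edgeR). FANCF, which joins FANCE and FANCC to the rest of the complex and has a single coding exon (chromosome 11, 22644079 to 22647387, minus strand), was at 13.7, 11.4 and 11.0 CPM in vehicle and 6.37, 10.5 and 7.55 CPM after SGI-110. The nearest libraries of the groups were 10.5 and 11.0 CPM, so the separation was small. FANCF fell 1.51-fold (log2 −0.59, SE 0.20, adjusted p = 0.0431, edgeR), and the call was lost in 4 of the 6 fits without 1 library, with an adjusted p of up to 0.159, and also with DESeq2 (adjusted p = 0.0841), library totals (adjusted p = 0.0543, edgeR) and no filter (adjusted p = 0.0563, edgeR).

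FANCA, a scaffold subunit (chromosome 16, 89803959 to 89883065, minus strand), was at 49.0, 49.2 and 40.2 CPM in vehicle and 34.1, 34.9 and 32.3 CPM after SGI-110. The treated libraries were close together and all below vehicle. It fell 1.37-fold (log2 −0.45, SE 0.12, adjusted p = 0.0139, edgeR), and the call was lost without vehicle replicate 1, vehicle replicate 2 or SGI-110 replicate 3 (adjusted p up to 0.0714). A share of 25.8% of its exon bases overlaps ZNF276 on the opposite strand, which showed a log2 change of −0.28 (adjusted p = 0.165, edgeR). FANCC (chromosome 9, 97861336 to 98079991, minus strand) was at 28.9, 27.6 and 28.9 CPM in vehicle and 20.2, 22.6 and 22.5 CPM after SGI-110. It fell 1.31-fold (log2 −0.39, SE 0.10, adjusted p = 0.0166, edgeR), and the call was lost without vehicle replicate 1 or vehicle replicate 2 (adjusted p up to 0.0792). FANCC, FANCE and FANCF form 1 module of the complex, in which FANCE rose and FANCC and FANCF fell. Each of these calls was lost with some single library left out. With so few genes, beside 37.7% of all genes called, they say nothing about the module as a whole.

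The other core genes gave no call. FANCB, a subunit of the catalytic module, gave a log2 fold change of 0.49 (adjusted p = 0.0917, edgeR) and groups that did not overlap, at 3.89 to 4.74 CPM in vehicle and 5.34 to 7.05 CPM after SGI-110. FANCL, the ubiquitin ligase itself, gave 0.37 (adjusted p = 0.0905, edgeR), and passed without SGI-110 replicate 2 (adjusted p = 0.0486). FANCG, which binds FANCA, gave −0.25 (adjusted p = 0.113, edgeR). FANCM, the translocase that anchors the complex on DNA, and UBE2T both gave −0.08 (adjusted p = 0.788 and 0.535, edgeR), and FANCM gave −0.36 without SGI-110 replicate 1 (adjusted p = 0.140).

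The substrates of the core complex were not distinguishable between the groups. FANCD2 was at 12, 13.4 and 12.2 CPM in vehicle and 12.4, 6.93 and 10.4 CPM after SGI-110, and the replicates of SGI-110 spread more widely than the groups differed. Its log2 fold change was −0.31 (95% interval −0.76 to 0.13, adjusted p = 0.244, edgeR). FANCI was at 37.3, 39.7 and 30.9 CPM in vehicle and 43.4, 23.6 and 31.7 CPM after SGI-110, a log2 fold change of −0.11 (95% interval −0.57 to 0.34) and of −0.36 without SGI-110 replicate 1 (adjusted p = 0.108, edgeR). SLX4, the scaffold of the nucleases that cut next to a crosslink, gave −0.22 (adjusted p = 0.285, edgeR). FANCD2 and CHEK2 have pseudogene copies in the genome, and how reads that match several places were counted is not given in the sources used here, so both counts are uncertain.

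Among the 5 checkpoint genes only CHEK1 passed, beside 37.7% of all genes called, and its call depended on single libraries. The count is too small to describe the role as a whole. CHEK1, the kinase that ATR activates (chromosome 11, 125495031 to 125546150, plus strand), was at 35.2, 32.8 and 33.8 CPM in vehicle and 55.3, 37.5 and 45.9 CPM after SGI-110. The treated libraries were all above vehicle but the lowest of them by little. CHEK1 rose 1.37-fold (log2 0.45, SE 0.14, adjusted p = 0.0327, edgeR), and the call was lost in 5 of the 6 fits without 1 library (adjusted p 0.0519 to 0.101), SGI-110 replicate 2 being the exception.

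ATM, the kinase that responds to breaks (chromosome 11, 108093559 to 108239826, plus strand), was at 16.6, 22.6 and 22.8 CPM in vehicle and 43.5, 20.5 and 22.2 CPM after SGI-110. Its log2 fold change was 0.49 with all libraries (adjusted p = 0.187, edgeR) and 0.05 without SGI-110 replicate 1, which alone stood above vehicle. ATR, the kinase that responds to stalled forks, was at 10.2, 13.6 and 13.8 CPM in vehicle and 21.5, 13.1 and 14.5 CPM after SGI-110, with a log2 fold change of 0.40 (adjusted p = 0.161, edgeR) and of 0.15 without SGI-110 replicate 1. CHEK2, the kinase that ATM activates, was at 9.15, 10.4 and 9.79 CPM in vehicle and 11.1, 9.43 and 9.86 CPM after SGI-110, and the log2 fold change was 0.06 (95% interval −0.27 to 0.38). TOPBP1, which switches on ATR, gave −0.01 (adjusted p = 0.976, edgeR), and −0.32 without SGI-110 replicate 1 (adjusted p = 0.0674).

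Genes that mark the chromatin around a break gave 0 calls among 4 in edgeR, at adjusted p values of 0.0975 or more, beside 37.7% of all genes called. With 4 genes, this count says nothing about the role as a whole. MDC1, the adaptor that binds phosphorylated H2AX, gave a log2 fold change of −0.28 (adjusted p = 0.0975, edgeR). All its treated libraries, at 81.9 to 84.6 CPM, were below the vehicle libraries, at 90.8 to 117 CPM. The ubiquitin ligases RNF8 and RNF168, which act next, gave 0.18 (adjusted p = 0.232, edgeR) and −0.07 (adjusted p = 0.645, edgeR). TP53BP1, which protects ends from resection, gave −0.05 (adjusted p = 0.820, edgeR), and 12.4% of its exon bases overlap TUBGCP4.

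In the repair of nicks and of proteins crosslinked to DNA, XRCC1 and SPRTN moved in opposite directions. XRCC1, the scaffold that holds the enzymes of nick repair together (chromosome 19, 44047464 to 44079730, minus strand), was at 49.4, 47.2 and 38.7 CPM in vehicle and 25.3, 27.6 and 27.4 CPM after SGI-110. Vehicle replicate 3 was the lowest of its group and still above every treated library. XRCC1 fell 1.69-fold (log2 −0.75, SE 0.12, adjusted p = 0.00137, edgeR). SPRTN, a protease that digests proteins crosslinked to DNA at replication forks (chromosome 1, 231473682 to 231490769, plus strand), was at 17.7, 18.8 and 19.1 CPM in vehicle and 33.1, 25.3 and 25.9 CPM after SGI-110. All treated libraries were above vehicle. SPRTN rose 1.52-fold (log2 0.61, SE 0.13, adjusted p = 0.00626, edgeR), and the log2 value ran from 0.47 to 0.68 with any library left out.

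PARP1, which detects nicks and recruits XRCC1 (chromosome 1, 226548392 to 226595801, minus strand), was at 215, 212 and 196 CPM in vehicle and 243, 227 and 257 CPM after SGI-110. The groups did not overlap and the difference was small, at log2 0.22 (95% interval −0.0006 to 0.44, adjusted p = 0.107, edgeR). It passed with the Wald test of DESeq2 (adjusted p = 0.0458) and with scaling to library totals (adjusted p = 0.0468).

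Levels of the 39 genes per kb of counted exon spanned a wide range in vehicle. UBE2T was the highest at 92.8 ± 1.98 CPM per kb (SD, n = 3), followed by PARP1 at 52.1 ± 2.52 and FANCG at 33.0 ± 2.11. The lowest were ATR at 1.52 ± 0.249, FANCM at 1.09 ± 0.0404 and BRCA2 at 0.654 ± 0.128. Of 38 neighbouring pairs in this order, 23 differed by no more than their spread, among them XRCC3, XRCC1 and FANCE at 22.5, 21.5 and 20.5 CPM per kb and, near the low end, ATM, FANCB and ATR at 1.57, 1.54 and 1.52 CPM per kb. After SGI-110 RBBP8 reached 21.2 ± 5.44 CPM per kb from 11.7 ± 0.778, and XRCC1 went to 12.7 ± 0.61 from 21.5 ± 2.68.

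**Figure D4:**
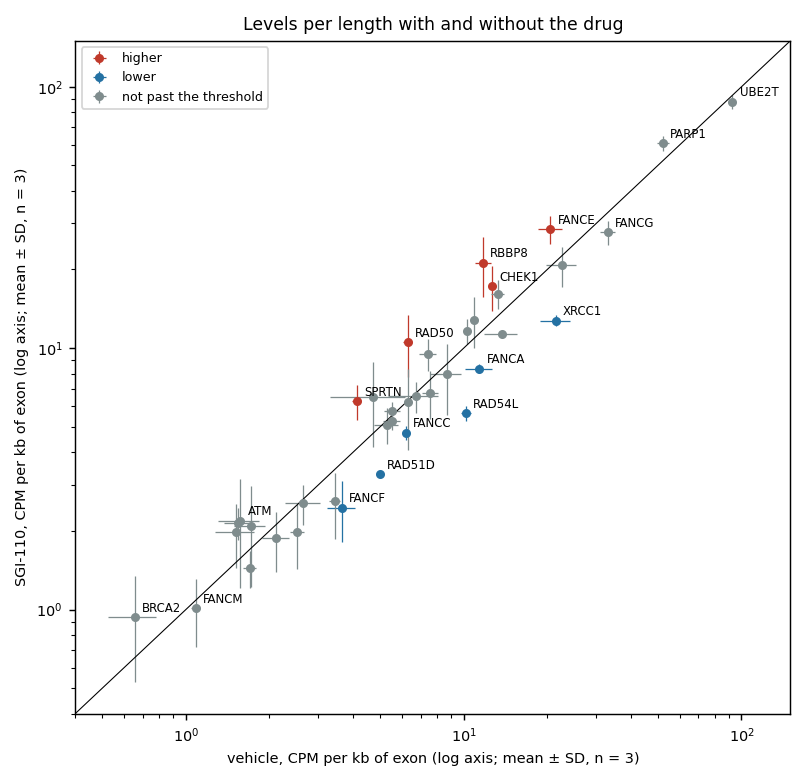
Level of each of the 39 genes per kb of counted exon (CPM per kb, log axes) after SGI-110 (vertical) against vehicle (horizontal), as the mean of 3 libraries with SD bars. The diagonal marks equal levels. Genes called higher are in red, those called lower in blue and those without a call in grey. UBE2T at 92.8 and PARP1 at 52.1 CPM per kb are highest in vehicle and BRCA2 at 0.654 is lowest.

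With all libraries, other repair genes on a wider list, chosen by function, were called at shares below those of all genes. Of 106 listed, 95 were in the table and tested, and 15 were higher and 10 lower after SGI-110, or 15.8% and 10.5% beside the 19.3% and 18.4% of all genes, with a median log2 fold change of −0.02. The number higher was 9 without SGI-110 replicate 3, where 1706 of 13618 genes tested were higher. It was 20 without SGI-110 replicate 2, where 2484 of 13572 genes tested were higher, a share below that of the list. Other Fanconi genes gave 0 higher and 1 lower of 12, other recombination genes 3 and 3 of 26, other checkpoint and damage chromatin genes 5 and 3 of 22, end joining genes 3 and 1 of 11, and genes of base excision and crosslinked protein repair 4 and 2 of 24. Of the 95, 5 changed by more than 2-fold, and they are named here after their values were seen. LIG1, the ligase of replication and excision repair, fell from 115, 123 and 109 CPM to 46.8, 56.0 and 53.9 CPM (log2 −1.15), and NTHL1, a glycosylase for oxidised bases, fell by 1.28 on the log2 scale. SFR1, a recombination gene, rose 2.52-fold and POLB, the polymerase of base excision repair, rose 2.08-fold.

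ACRC, also called GCNA, is a germ cell gene of the same protease family as SPRTN. It was at 0.585, 0.707 and 1.60 CPM in vehicle and 85.3, 48.4 and 76.0 CPM after SGI-110. Treated libraries were far above vehicle, where replicate 3, the library with background counts, was the highest. The increase was 69.5-fold (log2 6.12, SE 0.34, adjusted p = 2.66e-06, edgeR) and 108-fold without vehicle replicate 3, while SPRTN itself rose 1.52-fold.

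Transcripts of dividing cells and of the damage response were read on separate lists, chosen with earlier results of these data known. On a list of 22 proliferation genes, 2 were higher and 10 lower, or 9.09% and 45.5% beside 19.3% and 18.4% of all genes. Their median log2 fold change was −0.31, and their summed level was 4421 to 4869 CPM in vehicle and 3525 to 3911 CPM after SGI-110. On a list of 22 p53 and damage response transcripts, 9 were higher and 2 lower, or 40.9% and 9.09% beside the same shares of all genes. The median there was 0.20, and the sums were 952 to 1141 CPM in vehicle and 1667 to 2034 CPM after SGI-110. Neither pair of ranges overlapped. The summed level of the 39 repair genes was 1333 to 1395 CPM in vehicle and 1324 to 1574 CPM after SGI-110, which did overlap. The part of proliferation or of the damage response in the changes of single repair genes was not tested.

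**Figure D5:**
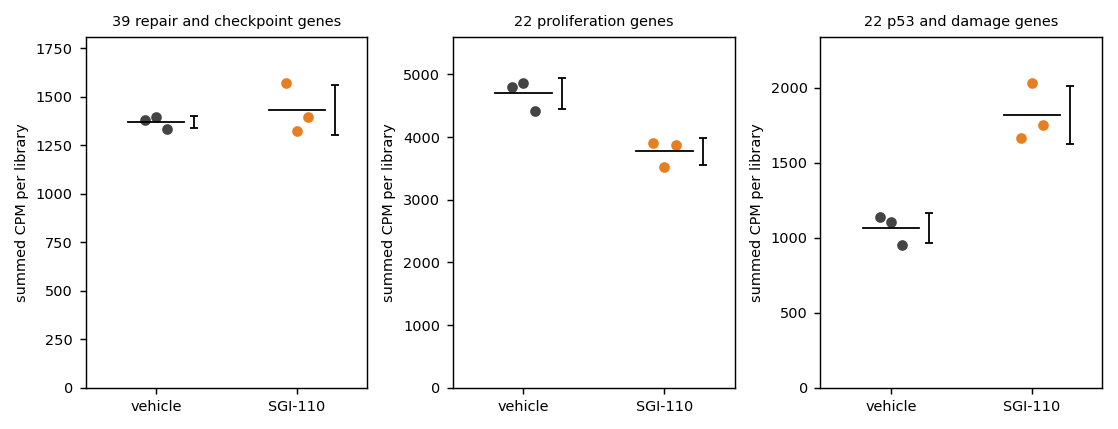
Summed CPM of the 39 repair and checkpoint genes, of 22 proliferation genes and of 22 p53 and damage response transcripts in each of the 6 libraries, 1 point a library. Sums of the repair genes overlap between the groups (1333 to 1395 CPM in vehicle, 1324 to 1574 CPM after SGI-110), those of proliferation genes are lower after SGI-110 and those of damage response transcripts are higher.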

How the data were processed

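RNA from MDA-MB-231 cells was measured in 3 vehicle and 3 SGI-110 libraries, grouped by their labels. The authors aligned reads to hg19 with STAR (2.3.1z, from the submitters' processing notes) and deposited raw exon counts per RefSeq transcript, made with iRNA-seq. The deposited table also holds regularized log2 values, made with DESeq2, a mean signal over libraries (baseMean), and the authors' own DESeq2 comparison (log2 fold change, test score, p-value and adjusted p-value), none of which was used, and exon lengths, which were. Handling of strand and of reads matching several places is not given in the sources used here.

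Differences in counts were assessed by edgeR 4.0.16 under R 4.3.3 (TMM, filterByExpr with a minimum count of 10, quasi-likelihood test, Benjamini-Hochberg adjustment over 13322 genes, threshold 0.05), after the fit had been tested on simulated data. In that simulation the fit called 12.4% of 97 genes changed by 0.5 on the log2 scale and 73.2% of 97 changed by 1. It also called 7 unchanged genes. Far fewer genes were changed there than the 37.7% of all genes called in the data. How often changes of the size seen here are missed in the data was not tested. Standard errors came from the F statistic. The log2 levels used a pseudocount of 0.5. Totals were 8792127 to 22277442 counts. Alternatives were a replicate block, DESeq2 1.42.0, its size factors, library totals, no filter, at least 10 counts in every library, a length offset, and leaving out each library. Exon overlaps came from a GENCODE annotation on GRCh37, without readthrough and unnamed genes. Every one of the 39 genes is named, with values per library for a fixed set and for genes past the threshold among the 12 largest changes, and for further genes where their pattern is described. The genes and lists were chosen with earlier results of these data known.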

Additional observations from a re-analysis of the deposited data

How the results depend on the processing

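With 1 library left out, the 39 genes gave 3 to 6 calls higher and 3 to 6 lower, beside 5 and 6 with all libraries. The lowest values came without SGI-110 replicate 3 for higher calls and without vehicle replicate 1 or 2 for lower calls. Over all genes tested, higher calls also fell there, from 2576 to 1706. Lower calls fell from 2446 to 1690 and 1787. The other repair genes gave 9 to 20 higher. Among the 7 other settings the counts stayed between 5 and 6 in both directions, and no result changed sign while called. The median log2 fold change of the 39 genes was −0.04 with all libraries and ran from −0.10 to 0.07 with 1 left out. With DESeq2 the median over all genes given a fold change, including those of low count, was −0.13. It was 0.02 over the genes tested in the main edgeR fit.

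With a replicate block, 5 genes were higher and 5 lower, FANCF being lost (adjusted p = 0.0557, edgeR). Pairing by replicate number was not seen in the values. The correlations of same-numbered libraries were −0.09, 0.09 and −0.05, and 2 of the 6 libraries correlated best with their own number. Whether libraries of the same number came from the same experiment was not tested.

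Precision is limited by 3 libraries a group, by the low depth of SGI-110 replicate 2, by background counts in vehicle replicate 3 and by the spread of SGI-110 replicate 1. A miss of the threshold does not show equal levels. Transcript counts do not measure protein, its modification or DNA damage.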
